A study of Homo sapiens with 24 samples.

Results

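The genes described here are 9 members of the NRF2 pathway and of glutathione synthesis: NFE2L2, KEAP1, GCLC, GCLM, NQO1, TXNRD1, SLC7A11, SRXN1 and SQSTM1. They were taken by symbol from the 60617 gene identifiers of a raw count table, and 8 of the 9 were among the 13098 genes with enough counts to be tested. The cells were THP1, a human monocytic leukaemia line, turned into adherent macrophages with 10 ng/ml of the phorbol ester PMA for 48 hours followed by 48 hours without it. For transduction they met lentivirus for 24 hours, rested for 48 hours and were selected with 1 µg/ml puromycin. CD33KO_shPTPN6 cells carried a CD33 knockout and a hairpin against PTPN6 (5 libraries). CD33KO_shCTRL cells carried the knockout with empty pLKO.1, WT_shPTPN6 cells were wild type with the hairpin, and WT_shCTRL cells were wild type with empty pLKO.1 (6 libraries each). CD33 is an inhibitory receptor of myeloid cells, and PTPN6 encodes SHP-1, a phosphatase recruited by such receptors. Every group thus shares transduction, puromycin selection and PMA. The empty vector has no hairpin, there was a single hairpin sequence, and the labels do not say whether the knockout cells are 1 clone, so clone, hairpin and target effects cannot be told apart.

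NRF2, the product of NFE2L2, is a transcription factor that pairs with small MAF proteins on antioxidant response elements. KEAP1 holds NRF2 and presents it to the CUL3 ubiquitin ligase for degradation, which electrophiles and oxidants interrupt. SQSTM1 (p62) is a selective autophagy receptor that binds KEAP1. SLC7A11 is the light chain of the cystine/glutamate exchanger that supplies cysteine, and GCLC and GCLM are the catalytic and modifier subunits of glutamate-cysteine ligase, the rate-limiting enzyme of glutathione synthesis. TXNRD1 reduces thioredoxin, SRXN1 repairs overoxidised peroxiredoxins and NQO1 reduces quinones. In macrophages this system limits damage from the oxidants these cells make. NRF2 is controlled largely through protein stability, which counts of RNA do not measure.

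The promoters of 4 members are printed because the subunit genes GCLC and GCLM moved in opposite directions under the hairpin, and because those of GCLM, TXNRD1 and KEAP1 hold the core of an antioxidant response element. Each window runs from 250 bases before the annotated start to 50 after it, in the sense of the gene, from RefSeq on GRCh38.p14. Capitals mark TGACNNNGC, searched on both strands.
GCLM, chr1:93909381-93909680, minus strand: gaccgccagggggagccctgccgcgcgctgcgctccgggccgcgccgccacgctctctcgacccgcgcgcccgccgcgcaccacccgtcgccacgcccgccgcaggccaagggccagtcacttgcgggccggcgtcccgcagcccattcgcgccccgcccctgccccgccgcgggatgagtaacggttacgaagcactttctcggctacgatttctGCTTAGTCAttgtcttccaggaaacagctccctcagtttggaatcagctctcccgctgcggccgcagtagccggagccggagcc
GCLC, chr6:53545052-53545351, minus strand: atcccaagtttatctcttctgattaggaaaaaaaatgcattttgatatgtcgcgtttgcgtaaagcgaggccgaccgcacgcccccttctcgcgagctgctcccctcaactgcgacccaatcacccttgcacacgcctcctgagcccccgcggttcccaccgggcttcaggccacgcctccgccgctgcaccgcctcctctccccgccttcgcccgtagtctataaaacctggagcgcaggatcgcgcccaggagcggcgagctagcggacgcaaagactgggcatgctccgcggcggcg
TXNRD1, chr12:104286782-104287081, plus strand: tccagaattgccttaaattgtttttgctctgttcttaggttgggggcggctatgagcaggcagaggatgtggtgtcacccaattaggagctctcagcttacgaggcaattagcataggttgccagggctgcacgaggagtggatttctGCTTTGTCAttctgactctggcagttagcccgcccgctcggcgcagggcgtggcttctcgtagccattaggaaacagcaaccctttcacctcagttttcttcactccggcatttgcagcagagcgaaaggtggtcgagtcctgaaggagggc
KEAP1, chr19:10502722-10503021, minus strand: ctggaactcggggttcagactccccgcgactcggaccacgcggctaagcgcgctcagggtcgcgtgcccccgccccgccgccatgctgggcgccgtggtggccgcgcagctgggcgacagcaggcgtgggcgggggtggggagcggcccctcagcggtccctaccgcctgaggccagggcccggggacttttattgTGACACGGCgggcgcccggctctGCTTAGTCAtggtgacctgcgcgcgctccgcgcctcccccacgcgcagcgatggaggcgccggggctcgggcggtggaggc
The GCLM match reads GCTTAGTCA in the sense of the gene, with its first base at position -34 from the start, and the TXNRD1 match reads GCTTTGTCA at position -102. The KEAP1 window, the second of 2 for that gene, holds 2 matches, the first TGACACGGC at position -54. TXNRD1 has another window at chr12:104215529-104215828 with 2 matches. The windows of NFE2L2, GCLC, NQO1, SRXN1 and SQSTM1 hold no such letters. Bases outside the windows were not searched, so these genes may hold the element elsewhere. The part of the element in the opposite movement of GCLC and GCLM was not tested. The motif is common: it stands in 4687 of 35116 promoters of that length (13.3%), and in the windows of 3 of the 8 members with an entry, against 4384 of 27305 symbols (16.1%). No match in the 8 members' windows overlaps the AP-1 motif TGANTCA, but such an overlap is rare, in 197 of 35116 promoters (0.56%). The AP-1 motif anywhere in the window is held by 7.7% of all promoters.

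Library totals ran from 2024032 to 2581042 counts in CD33KO_shPTPN6, 2048161 to 3749258 in CD33KO_shCTRL, 3318001 to 6269304 in WT_shPTPN6 and 4170191 to 5700712 in WT_shCTRL. PTPN6 stood at 4.94 to 11.9 CPM (reads of a gene per library total, that total adjusted by TMM) in CD33KO_shPTPN6, 32.6 to 44.1 in CD33KO_shCTRL, 8.73 to 12.8 in WT_shPTPN6 and 35.8 to 52.4 in WT_shCTRL. CD33 stood at 15.7 to 29.0 and 16.2 to 22.5 CPM in the knockout groups with hairpin and with empty vector, and at 81.3 to 94.9 and 39.7 to 48.5 CPM in the corresponding wild-type groups. CD33KO_shCTRL replicate 2 stood apart, with 200 genes at least 2-fold from the rest of its group, against 55 to 104 in the other 5 libraries of that group. All 8 macrophage markers passed the filter, and their sum was 1970 to 2145 CPM in CD33KO_shPTPN6, 795 to 963 in CD33KO_shCTRL, 2130 to 2236 in WT_shPTPN6 and 697 to 814 in WT_shCTRL. Of these 8, 2 were higher and 4 lower in the knockout with the control vector, and all 8 were higher under the hairpin in wild type. Under it in knockout cells 3 were higher, none lower and 5 not called. CD14 averaged 1327, 610.0, 870.4 and 281 CPM in that order of groups, ITGAM 60.6, 59.3, 177 and 62.4 CPM, CD163 2.42, 2.41, 89.8 and 23.0 CPM and LYZ 5.66, 3.49, 227 and 26.1 CPM. Of the 6 epithelial and HEK-293 markers, cells of the kind that made the virus, 3 passed, and the 6 summed to 90.4 to 111, 104 to 139, 63.5 to 103 and 45.8 to 64.8 CPM in the same order. The 3 that passed did not move together. CDH1 and CDH2 averaged 52.2 and 63.9 CPM in CD33KO_shCTRL against 24.4 and 14.3 in WT_shCTRL, whereas INA averaged 0.276 against 17.4. The 7 fibroblast and endothelial markers summed to at most 79.1 CPM and the 8 lymphoid markers to at most 17.5 CPM in any library, and no marker of any list was at 0 in all libraries. The part of these marker differences in the results below was not tested.

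NFE2L2, KEAP1, GCLC, TXNRD1, SLC7A11 and SQSTM1 were higher in every perturbed group than in WT_shCTRL. GCLM rose in the knockout but fell under the PTPN6 hairpin, and NQO1 fell under the hairpin in both genotypes. With the control vector, 7 of the 8 tested members were higher in the knockout and none lower, where 28.3% of all tested genes were called higher and 28.4% lower (56.7% in either direction). Under the hairpin in wild-type cells 6 rose and 2 fell, against 30.2% and 30.4% of all genes (60.6% in either direction). Under it in knockout cells again 6 rose and 2 fell, against 20.5% and 21.6% (42.1%). In CD33KO_shPTPN6 against WT_shCTRL 7 were higher and 1 lower, against 32.1% and 31.7% of all genes (63.8% in either direction). Against WT_shPTPN6 it had 6 higher and 1 lower, against 29.0% and 27.5% (56.5%). The median log2 difference of the 8 was 0.90 for the knockout, 0.68 for the hairpin in wild type, 1.19 for both, 0.35 for the hairpin in knockout cells and 0.86 for the knockout under the hairpin, against medians of -0.01, 0.00, 0.00, -0.01 and 0.01 over all tested genes. The first 3 comparisons share the WT_shCTRL libraries. Calls used edgeR's quasi-likelihood test with Benjamini-Hochberg adjustment over all tested genes at 0.05. The p-values set each difference against the spread between these libraries. The labels do not say that replicates were separate cultures, so the p-values may not carry over to separate cultures. In such bulk RNA, fewer cells of a kind and less RNA per cell cannot be told apart.

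**Figure D1:**
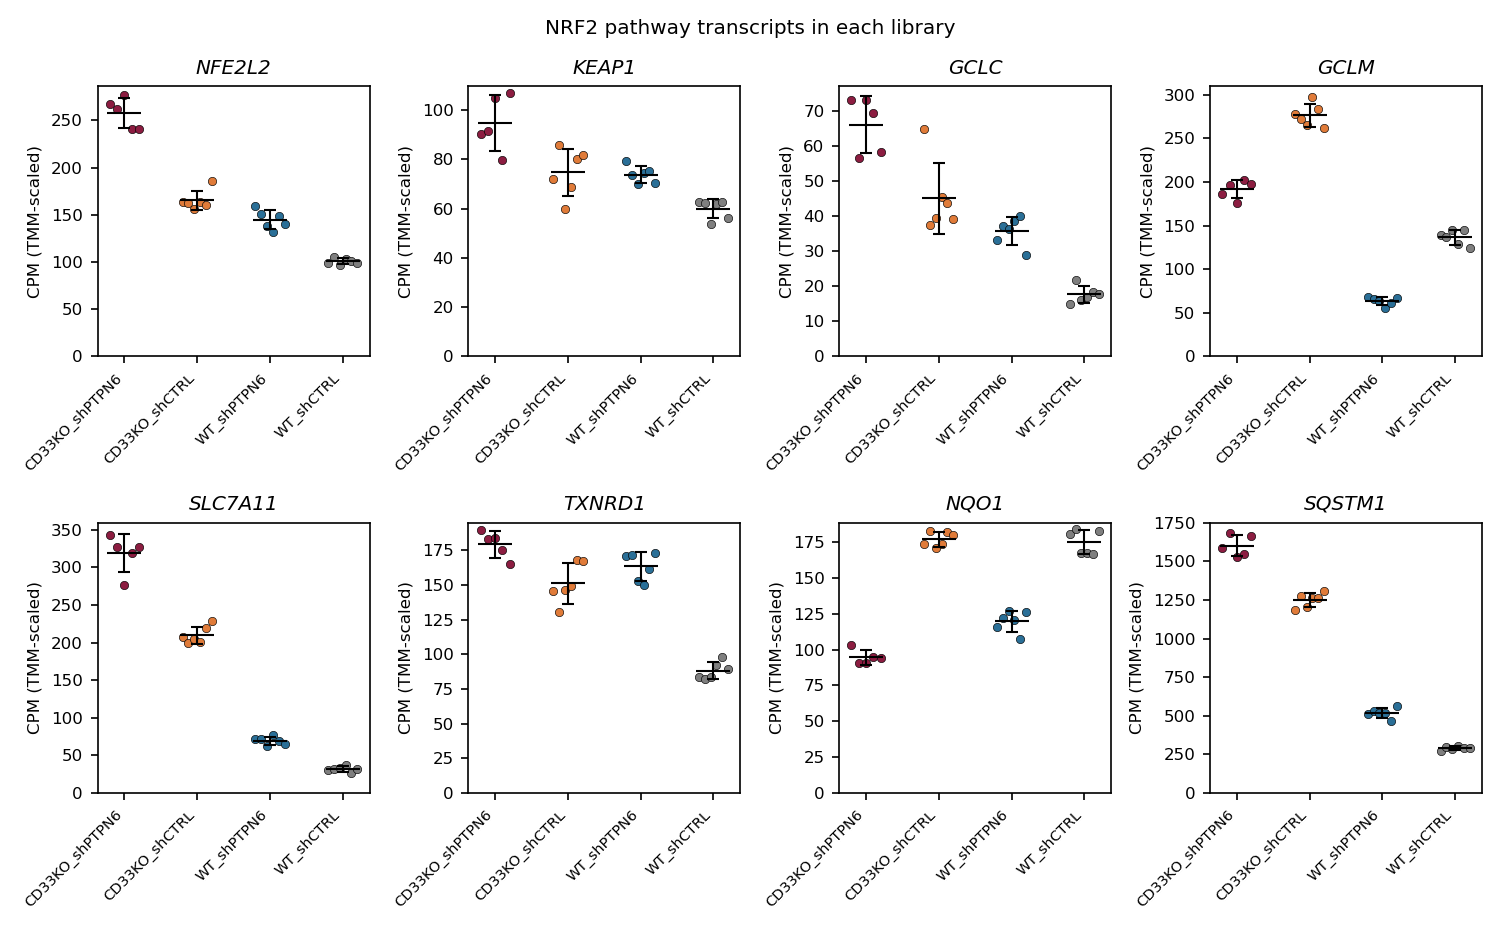
CPM (vertical axis, from 0, TMM scaled) of the 8 tested members in each of the 23 libraries (points), by group, with the group mean and SD as bars. SLC7A11 and SQSTM1 were lowest in WT_shCTRL and highest in CD33KO_shPTPN6, while GCLM and NQO1 were lower in each hairpin group than in the empty-vector group of the same genotype.

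NFE2L2 (ENSG00000116044, chr2:177227595-177392697, GRCh38, minus strand) held 268, 262, 277, 241 and 241 CPM in the 5 CD33KO_shPTPN6 libraries. Its lowest, median and highest values were 157, 163 and 186 CPM in CD33KO_shCTRL, 131, 144 and 159 CPM in WT_shPTPN6 and 97.2, 100.2 and 106 CPM in WT_shCTRL. The 4 groups stood in that order from high to low, and only the 2 middle ones overlapped, through a single CD33KO_shCTRL library, replicate 3 at 156.5 CPM. NFE2L2 was thus higher in the knockout (log2 fold change 0.71 ± 0.06 SE, edgeR adjusted p = 1.67e-21) and under the hairpin in wild type (0.52 ± 0.05, edgeR adjusted p = 2.87e-15). It was also higher under the hairpin in knockout cells (0.64 ± 0.06, edgeR adjusted p = 1.09e-17). The hairpin's effect in the 2 genotypes differed by 0.12 (edgeR adjusted p = 0.276), with an interval of -0.04 to 0.28 (1.96 SE on either side).

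KEAP1 (ENSG00000079999, chr19:10486120-10503741, minus strand) moved least of the called members in the knockout. It held 90.4, 91.4, 105, 79.9 and 107 CPM in CD33KO_shPTPN6. The lowest, median and highest libraries held 59.8, 76.1 and 85.7 CPM in CD33KO_shCTRL, 69.9, 74.0 and 79.3 CPM in WT_shPTPN6 and 53.7, 62.0 and 62.8 CPM in WT_shCTRL. Both middle groups had nearly the same median, and CD33KO_shCTRL overlapped each of the other groups. KEAP1 rose by 0.32 ± 0.07 in the knockout (edgeR adjusted p = 0.000106), by 0.30 ± 0.07 under the hairpin in wild type (8.88e-05) and by 0.34 ± 0.08 under it in knockout cells (0.000255). NFE2L2 and its inhibitor KEAP1 therefore both rose in each of these comparisons, NFE2L2 by the larger estimate.

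SQSTM1 (ENSG00000161011, chr5:179806398-179838078, plus strand) held 1584, 1681, 1526, 1549 and 1666 CPM in CD33KO_shPTPN6. The range was 1184 to 1305 CPM around a median of 1264 in CD33KO_shCTRL, 469 to 562 around 516 in WT_shPTPN6 and 268 to 304 around 292 in WT_shCTRL. No 2 groups overlapped. The difference was 2.11 ± 0.05 for the knockout (edgeR adjusted p = 1.97e-68), 0.84 ± 0.05 for the hairpin in wild type (3.78e-33) and 0.36 ± 0.05 for the hairpin in knockout cells (6.20e-11). The last 500 exon bases of SQSTM1 lie opposite MRNIP, and whether reads were counted by strand is not given in the sources used here. MRNIP itself had 1814 counts over all libraries, against 58242 for SQSTM1.

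SLC7A11 (ENSG00000151012, chr4:138164097-138242349, minus strand) showed the largest knockout difference of the set. It held 343, 327, 276, 319 and 327 CPM in CD33KO_shPTPN6. In CD33KO_shCTRL it held 199 to 228 CPM with a median of 206, in WT_shPTPN6 61.8 to 76.7 with a median of 70.1, and in WT_shCTRL 26.0 to 37.4 with a median of 31.6. The groups did not overlap, and CD33KO_shPTPN6 exceeded WT_shCTRL by 3.32 on the log2 scale. The knockout raised it by 2.72 ± 0.07 (edgeR adjusted p = 1.67e-63) and the hairpin in wild type by 1.12 ± 0.07 (1.19e-27). In knockout cells the hairpin raised it by 0.60 ± 0.06 (edgeR adjusted p = 8.35e-16).

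GCLC (ENSG00000001084, chr6:53497341-53616970, minus strand) and GCLM (ENSG00000023909, chr1:93885205-93909456, minus strand), whose promoters are printed above, both rose in the knockout and parted under the hairpin. GCLC held 73.1, 56.7, 73.2, 69.6 and 58.5 CPM in CD33KO_shPTPN6, 37.6 to 65.0 with a median of 41.7 in CD33KO_shCTRL, 28.9 to 40.0 with a median of 36.8 in WT_shPTPN6 and 14.9 to 21.8 with a median of 17.5 in WT_shCTRL. CD33KO_shCTRL overlapped CD33KO_shPTPN6 through replicate 1, at 65.0 CPM, and overlapped WT_shPTPN6 at its low end. GCLC rose by 1.34 ± 0.11 in the knockout (edgeR adjusted p = 1.03e-20), by 1.01 ± 0.10 under the hairpin in wild type (2.95e-15) and by 0.56 ± 0.11 under it in knockout cells (5.46e-06).

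GCLM held 186, 196, 176, 203 and 198 CPM in CD33KO_shPTPN6 and 261 to 298 with a median of 275 in CD33KO_shCTRL. It held 55.2 to 67.8 CPM with a median of 64.7 in WT_shPTPN6 and 124 to 145 with a median of 138 in WT_shCTRL. The 4 groups did not overlap, and their order differed from that of GCLC, with CD33KO_shCTRL highest and WT_shPTPN6 lowest. GCLM was higher in the knockout by 1.02 ± 0.05 (edgeR adjusted p = 5.52e-35). It fell by 1.10 ± 0.06 under the hairpin in wild type (edgeR adjusted p = 3.22e-34) and by 0.53 ± 0.06 under it in knockout cells (1.08e-13). CD33KO_shPTPN6 still held more GCLM than WT_shCTRL, by 0.49 on the log2 scale.

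As a description of both subunit genes together, chosen after their values were seen, log2 of GCLM over GCLC was taken in each library. It averaged 1.54 ± 0.23 in CD33KO_shPTPN6 (SD, n = 5), 2.64 ± 0.27 in CD33KO_shCTRL, 0.83 ± 0.26 in WT_shPTPN6 and 2.95 ± 0.22 in WT_shCTRL (SD, n = 6 each). The 2 hairpin groups did not overlap the empty-vector groups, at 1.27 to 1.79 and 0.51 to 1.22 against 2.09 to 2.85 and 2.65 to 3.22. The empty-vector groups of both genotypes overlapped. The ratio is one of read counts at 3' ends and not of subunit protein.

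**Figure D2:**
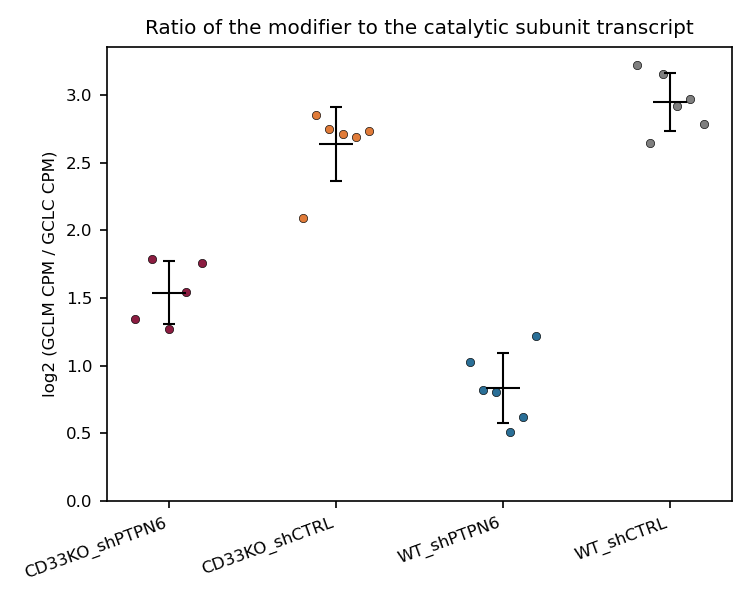
Log2 of GCLM CPM over GCLC CPM (vertical axis) in each of the 23 libraries by group, with the group mean and SD. All CD33KO_shPTPN6 libraries, from 1.27 to 1.79, and all WT_shPTPN6 libraries, from 0.51 to 1.22, sit below every empty-vector library.

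TXNRD1 (ENSG00000198431, chr12:104215779-104350305, plus strand) held 189.7, 183, 184, 175 and 165 CPM in CD33KO_shPTPN6. Its lowest, median and highest values were 130.2, 148 and 168 CPM in CD33KO_shCTRL, 149.7, 166 and 173 CPM in WT_shPTPN6 and 82.1, 86.5 and 98.1 CPM in WT_shCTRL. The 3 perturbed groups overlapped each other and none overlapped WT_shCTRL. The knockout raised TXNRD1 by 0.78 ± 0.06 (edgeR adjusted p = 2.79e-22) and the hairpin in wild type by 0.88 ± 0.06 (8.67e-28). With both, the difference from WT_shCTRL was 1.02, and adding the hairpin to the knockout gave 0.24 ± 0.06 (edgeR adjusted p = 0.00122), or 0.15 (0.0442) with scaling by total counts alone. Between CD33KO_shPTPN6 and WT_shPTPN6 the estimate of 0.13 ± 0.06 missed the threshold (edgeR adjusted p = 0.0514), with an interval of 0.02 to 0.25 before adjustment.

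NQO1 (ENSG00000181019, chr16:69706996-69726951, minus strand) was the member without a call in the knockout. It held 103, 90.5, 90.7, 94.8 and 94.1 CPM in CD33KO_shPTPN6, 170.45 to 182 with a median of 177 in CD33KO_shCTRL, 107 to 127 with a median of 121 in WT_shPTPN6 and 167 to 184 with a median of 174 in WT_shCTRL. All CD33KO_shCTRL libraries lay within the range of WT_shCTRL, both hairpin groups lay below them, and CD33KO_shPTPN6 was lowest. The knockout estimate was 0.02 ± 0.05 (edgeR adjusted p = 0.763), with an interval of -0.08 to 0.12. NQO1 fell by 0.54 ± 0.05 under the hairpin in wild type (edgeR adjusted p = 5.56e-17) and by 0.90 ± 0.07 under it in knockout cells (9.24e-24).

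SRXN1 (chr20:646615-653370, minus strand) had 1 count in 1 of the 23 libraries and was not tested. A count of 0 allows up to 0.479 to 1.48 CPM per library (3 counts, counting error only). In GENCODE release 29 it shares 2292 of its 2698 exon bases, and 489 of the last 500, with another gene annotated on the same strand. That other gene had 0 counts over all libraries. Reads that 2 genes share may be dropped or split in counting, so the level of SRXN1 is uncertain. The limit of 3 counts does not bound it where such reads were dropped.

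**Figure D3:**
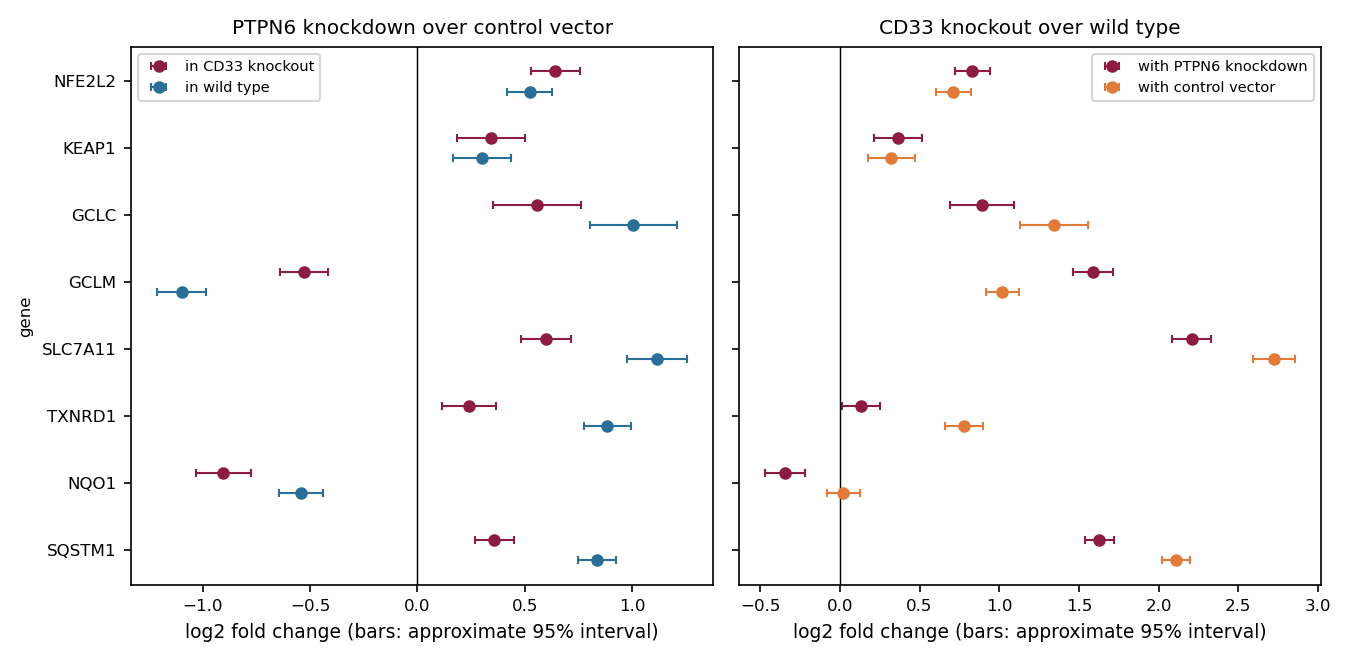
Log2 fold changes (horizontal axis) of the 8 tested members (rows) from the edgeR fit, with bars of 1.96 SE on either side, for the hairpin over the control vector in each genotype (left) and the knockout over wild type with each vector (right). GCLM and NQO1 lie left of 0 in both hairpin comparisons, at -1.10 and -0.54 in wild type, and SLC7A11 lies farthest right for the knockout, at 2.72.

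The groups of 6 of the 8 tested members did not overlap between CD33KO_shCTRL and WT_shCTRL, where the same held for 34.1% of all tested genes. Under the hairpin, 8 did not overlap in wild type (37.4%) and 5 in knockout cells (24.2%). CD33KO_shPTPN6 was clear of WT_shCTRL for 8 (45.7%) and of WT_shPTPN6 for 7 (37.2%).

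The hairpin's effect differed between genotypes for 6 of the 8 members, 1 more positive and 5 more negative in knockout cells, where 14.5% and 13.9% of all genes were called (28.4% in either direction). For GCLM the difference was 0.57 (edgeR adjusted p = 7.17e-09), and its fall was smaller in knockout cells. For NQO1 it was -0.36 (0.000269), and its fall was larger there. TXNRD1 at -0.65 (edgeR adjusted p = 4.47e-10), SLC7A11 at -0.52 (3.23e-06) and SQSTM1 at -0.48 (7.73e-10) rose less in knockout cells, where they already stood higher. GCLC differed by -0.45 ± 0.15 (edgeR adjusted p = 0.0140), a call that was lost without CD33KO_shCTRL replicate 1 (-0.33, 0.0760). KEAP1 differed by 0.04 (edgeR adjusted p = 0.813), with an interval of -0.17 to 0.25.

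The counts in the gene lists below stand beside the shares of all tested genes given above: 28.3% higher and 28.4% lower in the knockout, 30.2% and 30.4% under the hairpin in wild type, and 20.5% and 21.6% under it in knockout cells. Of 9 tested partners and regulators of NRF2, 2 rose and 3 fell in the knockout, which is near the share of all genes. Under the hairpin 1 rose and 3 fell in wild type, and 3 rose and 1 fell in knockout cells. MAFF, a small MAF protein, averaged 75.3 ± 4.91 CPM in CD33KO_shPTPN6 (SD, n = 5), 67.6 ± 8.29 in CD33KO_shCTRL, 10.9 ± 1.07 in WT_shPTPN6 and 11.8 ± 1.94 in WT_shCTRL (SD, n = 6 each). It was 2.52 ± 0.10 higher in the knockout (edgeR adjusted p = 8.68e-44). MAFK rose by 0.69 in the knockout, whereas MAFG stood at 0.02 (adjusted p = 0.806). BACH1, a repressor that competes for the same elements, averaged 56.5 CPM in CD33KO_shPTPN6, 32.0 in CD33KO_shCTRL, 36.7 in WT_shPTPN6 and 37.6 in WT_shCTRL. It rose by 0.82 ± 0.10 under the hairpin in knockout cells (edgeR adjusted p = 5.53e-11), by 0.84 more than in wild type (1.32e-07). CUL3, the scaffold of the KEAP1 ligase, fell by 0.48 under the hairpin in wild type, and RBX1, its RING subunit, fell by 0.45 in the knockout.

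Among the remaining genes of glutathione synthesis and turnover 7 of 9 were tested, and 2 rose and 3 fell in the knockout, with a median of 0.28. SLC3A2, the heavy chain that pairs with SLC7A11, averaged 158 CPM in CD33KO_shPTPN6, 130.4 in CD33KO_shCTRL, 94.1 in WT_shPTPN6 and 108 in WT_shCTRL. It rose by 0.28 ± 0.06 in the knockout (edgeR adjusted p = 0.000133) and fell by 0.20 ± 0.06 under the hairpin in wild type (0.00418), a smaller range than that of its light chain. GSS, which completes glutathione, fell by 0.24 in the knockout (adjusted p = 0.0105) and stood at 0.03 under the hairpin in wild type (0.743). GSR, glutathione reductase, averaged 215, 116, 253 and 139.7 CPM in CD33KO_shPTPN6, CD33KO_shCTRL, WT_shPTPN6 and WT_shCTRL. It rose under the hairpin by 0.88 ± 0.06 in knockout and 0.86 ± 0.05 in wild-type cells (edgeR adjusted p = 4.98e-25 and 6.70e-31), and fell by 0.26 in the knockout.

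Genes that use glutathione went mostly down in the knockout: of 17 tested, 4 rose and 10 fell with the control vector. In the knockout under the hairpin 3 rose and 13 fell, against 29.0% and 27.5% of all tested genes. The medians were -0.31 with the control vector and -0.46 under the hairpin. The hairpin in wild type raised 9 and lowered 5. GPX4, which reduces lipid peroxides, averaged 252 ± 30.5, 156 ± 7.14, 141 ± 7.26 and 88.8 ± 1.74 CPM in CD33KO_shPTPN6, CD33KO_shCTRL, WT_shPTPN6 and WT_shCTRL (SD, n = 5, 6, 6 and 6). It rose by 0.81 ± 0.06 in the knockout (edgeR adjusted p = 4.79e-24) and by 0.67 ± 0.06 under the hairpin in wild type (2.50e-20). GPX1, the main soluble glutathione peroxidase, fell by 1.02 ± 0.05 in the knockout (edgeR adjusted p = 1.81e-37) and rose by 0.80 under the hairpin in wild type. The microsomal transferase genes MGST1 and MGST3 fell by 1.07 and 1.17 in the knockout. Under the hairpin in wild type MGST1 rose by 1.79, and MGST3 stood at 0.03 (adjusted p = 0.627).

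In the thioredoxin and peroxiredoxin list of 10 tested genes 1 rose and 5 fell in the knockout, and 6 rose and 2 fell under the hairpin in wild type. PRDX6, a peroxiredoxin that uses glutathione, averaged 566 ± 28.4 CPM in CD33KO_shPTPN6, 902 ± 45.7 in CD33KO_shCTRL, 427 ± 6.61 in WT_shPTPN6 and 1056 ± 42.8 in WT_shCTRL (SD, n = 5, 6, 6 and 6). Like NQO1 and GCLM it fell under the hairpin, by 1.31 ± 0.04 in wild type and 0.67 ± 0.05 in knockout cells (edgeR adjusted p = 1.00e-50 and 2.96e-24). TXNIP, the thioredoxin inhibitor, fell by 1.58 ± 0.05 in the knockout (edgeR adjusted p = 1.09e-50).

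The enzymes that supply NADPH moved with the hairpin: 6 of 7 rose under it in wild type and 6 of 7 in knockout cells, none fell in either, and the medians were 0.88 and 0.67. In the knockout 2 rose and 1 fell, with a median of 0.02. PGD, of the pentose phosphate pathway, averaged 363 CPM in CD33KO_shPTPN6, 207 in CD33KO_shCTRL, 259 in WT_shPTPN6 and 122 in WT_shCTRL. It rose by 0.77 ± 0.05 in the knockout (edgeR adjusted p = 3.55e-25) and by 1.08 ± 0.05 under the hairpin in wild type (2.04e-38). IDH1 fell by 1.36 in the knockout and rose by 1.74 under the hairpin in wild type. The sum of the macrophage markers given above was likewise higher in both hairpin groups than in the empty-vector groups. All 8 of them rose under the hairpin in wild type, but only 3 in knockout cells. Their part in the NADPH genes was not tested.

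**Figure D4:**
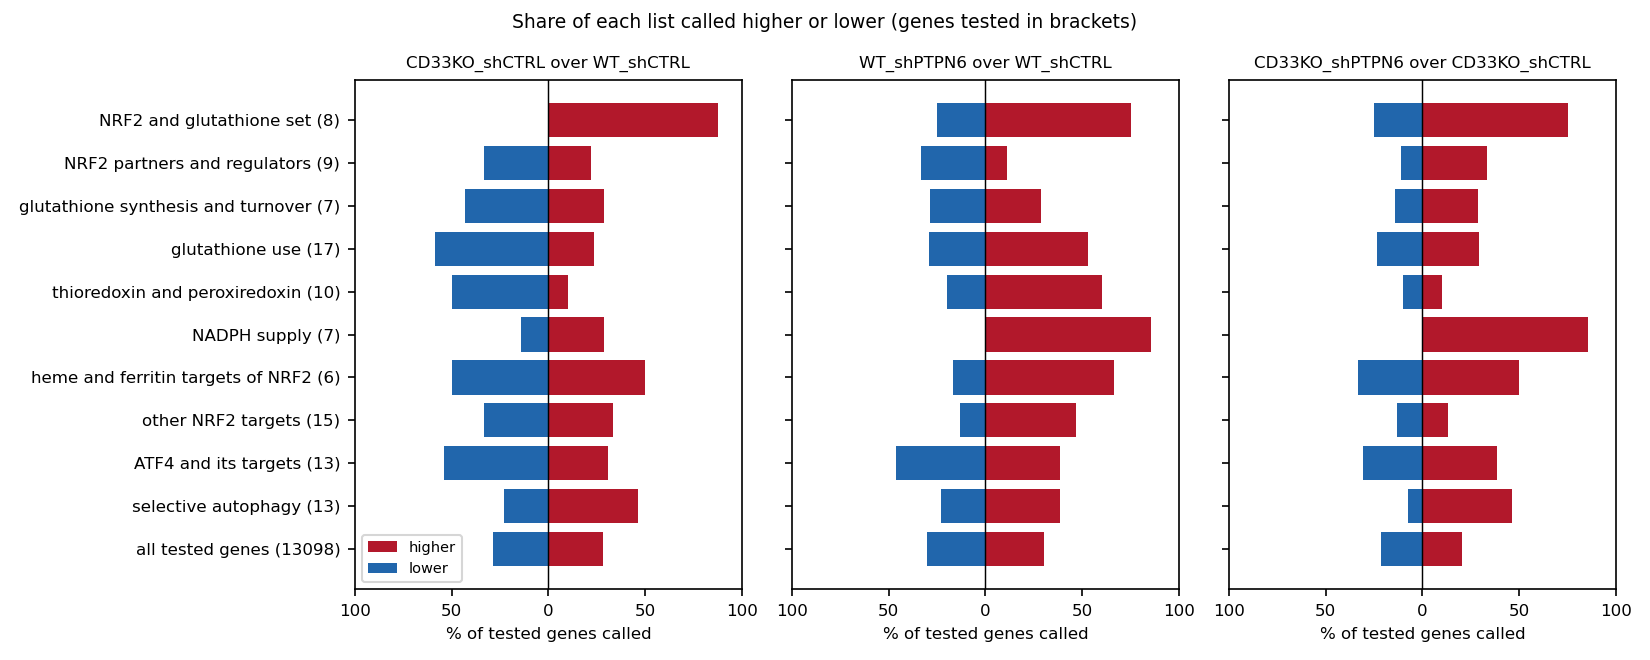
Percent of tested genes called higher (right of 0) and lower (left of 0) at an adjusted p under 0.05 in the NRF2 and glutathione set, in 9 gene lists and over all tested genes, in 3 comparisons, with the number tested after each name. The NADPH list has 6 of 7 higher in both hairpin comparisons and 2 of 7 in the knockout.

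Of 6 tested heme and ferritin genes 3 rose and 3 fell in the knockout. The ferritin chains had the smallest adjusted p of the list: FTH1 rose by 1.93 ± 0.05 and FTL by 0.99 ± 0.04 in the knockout (edgeR adjusted p = 8.98e-65 and 1.34e-41), and by 1.04 and 1.23 under the hairpin in wild type. FTH1 averaged 8474 CPM in CD33KO_shPTPN6, 7291 in CD33KO_shCTRL, 3936 in WT_shPTPN6 and 1912 in WT_shCTRL. HMOX1, heme oxygenase 1, fell by 0.34 ± 0.06 in the knockout (edgeR adjusted p = 3.20e-06) and rose by 0.50 ± 0.06 under the hairpin in wild type (3.48e-13). It averaged 94.9 CPM in CD33KO_shPTPN6, 104 in CD33KO_shCTRL, 185 in WT_shPTPN6 and 131 in WT_shCTRL. In the list of 15 other tested NRF2 targets 5 rose and 5 fell in the knockout, near the share of all genes, and 7 rose and 2 fell under the hairpin in wild type. ABCC3, an exporter of conjugates, averaged 111 CPM in CD33KO_shPTPN6, 40.7 in CD33KO_shCTRL, 80.3 in WT_shPTPN6 and 20.3 in WT_shCTRL, so that it rose by 1.02 in the knockout and by 1.99 under the hairpin in wild type. AKR1C2, an aldo-keto reductase, averaged 2.98 CPM in CD33KO_shPTPN6, 4.34 in CD33KO_shCTRL, 0.516 in WT_shPTPN6 and 17.1 in WT_shCTRL. It fell by 1.99 in the knockout and by 5.00 under the hairpin in wild type, and its near-identical paralogs make its counts uncertain. The WT_shPTPN6 libraries held 0.249 to 1.09 CPM, near the floor, so the size of the second fall is uncertain too.

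SLC7A11 is also a target of ATF4, the factor of the amino acid response. Of 13 tested genes of that list 4 rose and 7 fell in the knockout. ATF4 itself averaged 288 CPM in CD33KO_shPTPN6, 197 in CD33KO_shCTRL, 223 in WT_shPTPN6 and 280 in WT_shCTRL, and fell by 0.51 ± 0.05 in the knockout (edgeR adjusted p = 4.83e-16). Under the hairpin ATF4 was higher in knockout than in wild-type cells, by 0.36 ± 0.05 (edgeR adjusted p = 2.49e-09). SLC7A11 was higher in the knockout with either vector. These counts do not measure ATF4 protein, and the part of ATF4 in the level of SLC7A11 was not tested. VEGFA, the angiogenic growth factor, rose by 1.80 ± 0.06 in the knockout and PHGDH, of serine synthesis, fell by 2.31 ± 0.13 (edgeR adjusted p = 1.20e-47 and 3.56e-31). Among 13 selective autophagy genes, the list nearest to SQSTM1, 6 rose and 3 fell in the knockout. With both changes 9 rose and 2 fell, against 32.1% and 31.7% of all tested genes. ATG7, which activates LC3, rose by 0.65 in the knockout and 0.92 under the hairpin in wild type. OPTN, a receptor like SQSTM1, fell under the hairpin by 0.86 in knockout and 1.27 in wild-type cells, where SQSTM1 rose.

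The genes whose pattern over the 23 libraries lay nearest to each member, by root mean square difference in centred log2 CPM among genes of at least 5 CPM, are named here as a description. The nearest to NFE2L2 were DNAJB6 (0.0845), PHC2 (0.0924) and GPX4 (0.113). Nearest to SQSTM1 were SLAMF7 (0.130) and RND3 (0.139), and nearest to SLC7A11 were RHOBTB3 (0.203) and CEBPB (0.231). The measure is not scaled to a gene's range, so its size is not compared between members. TXNRD1 lay nearest to TFRC (0.123), the transferrin receptor, and ACSL4 (0.131). For GCLM they were C5AR2 (0.134) and LCP2 (0.149), for NQO1 F11R (0.123) and FEN1 (0.125), for KEAP1 RLF (0.122) and DDI2 (0.128), and for GCLC MRPS6 (0.200) and SLC26A6 (0.214). No member was among the 3 nearest genes of another member. With 10908 genes compared for each and no scaling to the size of change, that absence does not show that members differ in pattern.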

How the data were processed

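RNA of THP1 macrophages was sequenced from its 3' ends (QuantSeq, 100 ng total RNA per library, per the labels), so counts do not grow with gene length. The authors deposited raw counts per gene and library without normalization. Named in the submitters' processing notes, without roles, are the build hg38, R 3.6.1 with DESeq2 1.26.0, Subread 2.0.0, featureCounts, STAR 2.7.3a and bcl2fastq. Annotation release, strand setting and duplicate handling are not given in the sources used here. Of 24 labelled samples 23 were used, and CD33KO_shPTPN6 replicate 2 was not analysed here. Columns and labels differ only in the spelling of the control vector, and no column was unmapped. Of 60617 identifiers 60261 matched a symbol. At 2024032 counts, the smallest total, 5 CPM is about 10 reads.

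Genes were filtered with filterByExpr, scaled by TMM and fitted in 1 model with a mean per group, and 6 contrasts were tested with edgeR 4.0.16 (quasi-likelihood, robust, Benjamini-Hochberg over 13098 genes, threshold 0.05) in R 4.3.3. The interaction is the hairpin's effect in knockout cells minus that in wild type. CPM are TMM scaled. The SE, which is approximate, divides the absolute log2 fold change by the root of F. Intervals are 1.96 SE on either side and, like SEs, do not give the p-values.

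The members and lists were chosen with earlier results of these data known, so a list's name or direction is no independent evidence. All members were named, with up to 2 called genes per list, direction and contrast by adjusted p at 5 CPM or more, of which part is printed and some are not reported here, and for each member genes nearest in pattern. Alternatives were DESeq2 1.42.0, RLE size factors, total counts, 2 other filters, a replicate block, fits of only the groups compared, and leaving out each library. When counts were simulated for the knockout contrast (12431 genes) 20, 36, 45 and 47 of 50 genes were called at 1.25-, 1.5-, 2- and 4-fold, and 9 unchanged genes. Only 200 genes were changed in the simulation, against 7428 called in the data. The adjustment was therefore stricter there, and these rates do not describe the real contrast. Positions came from GENCODE release 29 on GRCh38 and promoters from RefSeq on GRCh38.p14.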

Additional observations from a re-analysis of the deposited data

Results flagged for a closer look

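In 2 of 32 tests of a member within a group, the highest library stood far from the rest. Chance alone would pick out about 5% of groups, so this count is near what chance would give. NFE2L2 held 185.7 CPM in CD33KO_shCTRL replicate 6, against 156.5 to 163.3 CPM in the other 5 libraries of that group. GCLC held 65.0 CPM in CD33KO_shCTRL replicate 1, against 37.6 to 45.4 CPM in the others.

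The hairpin's effect differed between knockout and wild-type cells, by edgeR's test of the interaction, for 6 of the 8 tested members. Among all tested genes 28.4% were called in either direction. The log2 differences of the 6 were 0.57 for GCLM, -0.45 for GCLC, -0.36 for NQO1, -0.65 for TXNRD1, -0.52 for SLC7A11 and -0.48 for SQSTM1. The GCLC call was lost without CD33KO_shCTRL replicate 1. PTPN6 itself stood at 4.94 to 11.9 CPM in CD33KO_shPTPN6 and 8.73 to 12.8 CPM in WT_shPTPN6, and the part of that in these differences was not tested.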

How the results depend on the processing

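The counts of members called in each direction were the same with DESeq2, RLE size factors, total counts, both other filters and the replicate block. Fits of only the 2 groups compared gave 1 change: TXNRD1 passed between CD33KO_shPTPN6 and WT_shPTPN6 (0.13, edgeR adjusted p = 0.0464), so that 7 members were higher there and not 6. It passed too without CD33KO_shPTPN6 replicate 6 (0.0271) or WT_shPTPN6 replicate 2 (0.0416), over a range of 0.09 to 0.16 in log2 with 1 library left out. NQO1 in the knockout, not called in any setting, turned to -0.0355 with total counts and -0.0256 with all genes of at least 1 count, and ran from -0.0024 to 0.0322 with 1 library left out. The interaction of KEAP1, also never called, ran from -0.0114 to 0.096, and that of GCLC from -0.53 to -0.33, losing its call without CD33KO_shCTRL replicate 1. Scaling by total counts moved the median of all genes by -0.14 (log2) for CD33KO_shPTPN6 against WT_shCTRL.

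Replicate numbers did not pair the samples: deviations of same-numbered libraries correlated at -0.06 to 0.04 over 33 pairs, and 4 of 23 libraries correlated best with their own number. With the replicate block 7362 genes were called in the knockout (7428 without it) and 7878 under the hairpin in wild type (7941). It changed no call of a member. For SRXN1, 3 counts per library correspond to 0.479 to 1.48 CPM, a limit from counting error alone. It does not cover reads dropped because another gene shares the exon bases.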
